A study of Mus musculus with 2 samples.

Results

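Epor, Jak2, Stat5a, Stat5b, Cish, Socs1, Socs2, Socs3, Sh2b3 and Pim1 are the genes of the erythropoietin receptor, its kinase, its transcription factors and the inhibitors and effector that lie downstream of them. They were picked by gene symbol, with earlier results of these data known but no threshold on a measured value, and they are 10 of the 42462 annotated genes in the deposited tables. Their transcripts were measured by sequencing of poly(A) RNA in G1E-ER4, an immortalized mouse erythroid line that the labels give as male and postnatal with an age of 0 day. The parental G1E line lacks Gata1, and the subline carries GATA-1 again as a fusion to the hormone-binding part of the oestrogen receptor, so that an oestrogen switches it on and the cells mature. All cells had received 10 nM 17beta-estradiol for 24 hours, and the labels name 2 biological replicates. These libraries form 1 group, so the levels below describe the induced state and no change with induction could be measured. The labels used here do not say whether erythropoietin was in the medium, and no protein or phosphorylation was measured.

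Erythropoietin binds a receptor on committed red cell precursors that has no kinase of its own. The receptor holds JAK2 on its inner tail, and once the hormone binds, JAK2 phosphorylates itself, the receptor and STAT5, which enters the nucleus and switches on target genes. Some of those targets, above all Cish and members of the SOCS family, shut the same receptor off again, and SH2B3 (also called LNK) restrains JAK2 directly. The pathway is known for keeping erythroid precursors alive. Activating changes in JAK2, in people and in mice, and loss of SH2B3 function in people are known for overproduction of red cells.

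STAT5 binds palindromes known as GAS elements, and 3 such words occurred in the promoter windows of Cish and Socs3. Promoter sequence from RefSeq (GRCm38.p6), from 250 bases before to 50 bases after an annotated start, was held for 9 of the 10 genes, in 12 windows, with Socs2 the missing one. The word searched was TTCNNNGAA, which reads the same on both strands, and 8.30% of the 32851 promoter windows of the table held it. The Cish window held it in 2 places, against 0.457% of all windows with at least 2, and the Socs3 window held it in 1 place. Both Cish matches lay in the 50 bases after the RefSeq start of the window, and the Socs3 match lay in the 250 bases before its start. The GENCODE transcript with most Cish counts, Cish-204, starts at base 107296710, so both Cish matches lie before that start. The windows of Epor, Jak2, Stat5a, Stat5b, Socs1, Sh2b3 and Pim1 did not hold these letters. The Sh2b3 window lay at the start of the transcript Sh2b3-204, which had 0 expected counts in replicate 1 and 10.71 in replicate 2. The Sh2b3 transcripts with most reads, Sh2b3-205 and Sh2b3-202, start at bases 121836825 and 121836859, outside the window. Their promoters were thus not searched. GATA words on either strand (AGATAA and AGATAG, and their forms TGATAA and TGATAG) were in 29.8% of all windows and, among these genes, in the Epor window alone, as TTATCT on the strand shown. The Cish and Socs3 windows are shown for their GAS words and the Epor window for its GATA word, in capitals and read 5′ to 3′ along the gene. A match is a description of the letters, since binding was not measured.
Cish, chr9:107296409-107296708, plus strand: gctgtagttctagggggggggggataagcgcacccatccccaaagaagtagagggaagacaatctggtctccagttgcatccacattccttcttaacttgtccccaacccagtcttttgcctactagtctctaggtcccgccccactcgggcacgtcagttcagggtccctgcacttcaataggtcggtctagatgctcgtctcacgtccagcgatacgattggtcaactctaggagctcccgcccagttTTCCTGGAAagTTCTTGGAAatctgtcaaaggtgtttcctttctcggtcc
Socs3, chr11:117969317-117969616, minus strand: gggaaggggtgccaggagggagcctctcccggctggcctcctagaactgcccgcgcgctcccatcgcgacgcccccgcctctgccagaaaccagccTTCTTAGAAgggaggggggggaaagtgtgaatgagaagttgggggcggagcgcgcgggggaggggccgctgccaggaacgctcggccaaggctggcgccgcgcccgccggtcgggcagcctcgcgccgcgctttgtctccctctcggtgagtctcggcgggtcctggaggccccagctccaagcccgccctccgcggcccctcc
Epor, chr9:21963527-21963826, minus strand: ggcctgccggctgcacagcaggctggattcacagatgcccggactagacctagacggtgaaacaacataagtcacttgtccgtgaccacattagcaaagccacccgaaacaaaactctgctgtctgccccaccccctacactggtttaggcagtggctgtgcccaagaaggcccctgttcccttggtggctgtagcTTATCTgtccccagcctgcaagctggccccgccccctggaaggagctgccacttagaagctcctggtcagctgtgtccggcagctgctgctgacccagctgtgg

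Replicate 1 held 20412826 expected counts and replicate 2 held 18564086. An expected count is the estimated number of reads from a transcript, with a read that fits several of them divided up. Levels are given as TPM, in which counts are taken per length and brought to the same sum in every library. The line was checked against its labelled cell type: 8 of 8 erythroid markers were at 1 TPM or more, with Hbb-bs, a beta-globin, at 61175 TPM in replicate 1 and 69726 TPM in replicate 2. The alpha-globin Hba-a2 had 35824 and 42224 TPM, and Gata1 itself, which the line carries as the introduced fusion, 2714 and 3180 TPM. Over transcripts with a coding sequence Hbb-bs had 11367 and 10931 TPM, below Hba-a2 at 35821 and 42223 TPM. Gata1 is 1 of the 8 markers, and since it was introduced, its level is no check of the cell type. Of 6 markers each of myeloid, mast, lymphoid and fibroblast or endothelial cells, 0 reached 1 TPM in both libraries, and no list summed to more than 0.55 TPM in a library. The highest single values among them were those of Itgam, at 0.48 and 0.52 TPM, and Cd79a, at 0.44 and 0.29 TPM. In a bulk sample, fewer cells that express a gene and less of its RNA per cell cannot be told apart.

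All 10 genes were detected, that is, at 1 TPM or more in both libraries, where 41.2% of 21461 protein-coding genes were. The survival kinase Pim1 was highest and the JAK inhibitor Socs1 lowest, with Pim1 296-fold higher in replicate 1 and 267-fold higher in replicate 2. The sum over the 10 was 641 TPM in replicate 1 and 643 TPM in replicate 2. Their median was 13.8 TPM, against 20.7 TPM over the 8840 detected protein-coding genes. From high to low the order was Pim1, Cish, Epor, Stat5b, Stat5a, Socs2, Jak2, Sh2b3, Socs3 and Socs1. Neighbours in that order did not overlap between the libraries, except Socs2 with Jak2 and Jak2 with Sh2b3.

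**Figure D1:**
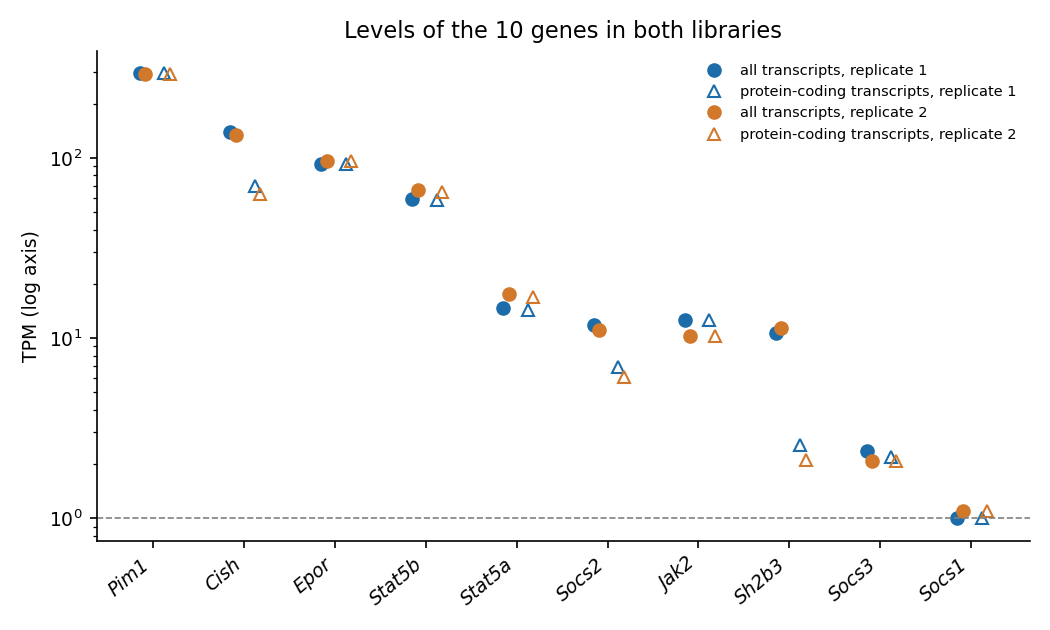
Level of each of the 10 genes in TPM on a log axis, with a filled circle per library for all transcripts, an open triangle for protein-coding transcripts and a dashed line at 1 TPM. Pim1 stood highest at 296 and 293 TPM, and Socs1 lowest at 1.00 and 1.10 TPM, next to the detection limit of 1 TPM.

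Epor, the receptor (ENSMUSG00000006235.5, chromosome 9, 21958897 to 21963506, minus strand, GRCm38), was the third highest of the 10. It had 92.52 TPM in replicate 1 and 96.65 TPM in replicate 2, from 2663 and 2534 expected counts, with a mean of 94.6 ± 2.92 TPM (SD, n = 2). That placed it above 85.3% of the detected protein-coding genes. Kit, the receptor for stem cell factor that acts on earlier erythroid progenitors, had 11.89 and 12.64 TPM. The log2 ratio of Epor over Kit was 2.95 ± 0.02 (SD, n = 2), so that Epor was the higher of the pair in both libraries, by 7.78-fold and 7.65-fold. Epor itself was lower than Csf2rb, the shared beta chain of the interleukin-3 and GM-CSF receptors, which had 514 and 574 TPM. The single listed Epor transcript took all of the gene's reads, and none of its 36-base words, the length of a read, occurred in another gene.

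Jak2, the kinase on the receptor tail (ENSMUSG00000024789.8, chromosome 19, 29251828 to 29313080, plus strand), was among the lower genes of the set. It had 12.54 TPM in replicate 1 and 10.29 TPM in replicate 2, with a mean of 11.4 ± 1.59 TPM (SD, n = 2). Epor transcripts were 7.38-fold and 9.39-fold as abundant as those of Jak2. Within the JAK family Jak2 ranked number 3 of 4 and held 15.5% ± 1.77 of the family's TPM (SD, n = 2). Jak1, the kinase of interferon and many interleukin receptors, was highest at 44.17 and 40.07 TPM. The log2 ratio of Jak2 over Jak1 was -1.89 ± 0.10 (SD, n = 2), below 0 in both libraries. Tyk2, another partner of interferon receptors, had 13.16 and 16.30 TPM, and Jak3, the kinase of the common gamma chain, 5.12 and 5.68 TPM. Jak2 was below Tyk2 in each library, by little in replicate 1 and by more in replicate 2. Almost all Jak2 reads were assigned to Jak2-202, the longer of the gene's listed transcripts, at 95.31% and 100% of its TPM. Only 116 of the 4995 words of 36 bases in Jak2-202 and 33 of the 4912 in Jak2-201 occur in no other Jak2 transcript. Few reads can thus tell these transcripts apart.

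The transcription factors Stat5a and Stat5b are near-twins that lie beside each other on chromosome 11, with 8626 bases between them, and Stat5b had most of the transcript. Stat5a (ENSMUSG00000004043.10, 100859351 to 100885169, plus strand) had 14.68 TPM in replicate 1 and 17.64 TPM in replicate 2, a mean of 16.2 ± 2.09 TPM. Stat5b (ENSMUSG00000020919.7, 100780731 to 100850724, minus strand) had 59.11 and 66.18 TPM, a mean of 62.65 ± 4.999 TPM (SD, n = 2 for each gene). The groups of values did not overlap. The log2 ratio of Stat5a over Stat5b was -1.96 ± 0.07, and Stat5a made up 20.5% ± 0.814 of their summed TPM (SD, n = 2). Together they held 34.0% ± 0.698 of the TPM of the 7 STAT genes. Stat5b ranked number 2, after Stat6, the factor of interleukin-4 signalling, at 68.62 and 78.74 TPM. Counting only transcripts with a coding sequence, Stat5b came first, at 58.75 and 65.08 TPM, against 47.63 and 50.07 TPM for Stat6. On the mean of both libraries Stat5a ranked number 5 of the 7 by either measure. In replicate 1 alone, over transcripts with a coding sequence, it did not keep that rank. Stat4, the factor of interleukin-12 signalling, had 0 expected counts in both libraries.

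How well short reads can tell the Stat5 genes apart follows from their sequences. Their leading transcripts, Stat5a-202 and Stat5b-201, share a run of 324 identical bases inside the coding sequence, at bases 754 to 1077 of Stat5a-202 and 907 to 1230 of Stat5b-201. The first 120 bases of that run are printed first, as an example of where a 36-base read fits both genes. The last 60 coding bases before the stop codon follow, where the messages differ. In all, 771 words of 36 bases occur in both genes, and 88.8% of the words of Stat5a and 86.0% of those of Stat5b occur in no other gene. Reads from shared stretches were divided by the authors' estimate, so the ratio of the pair carries that step.
Both, first 120 bases of the shared run: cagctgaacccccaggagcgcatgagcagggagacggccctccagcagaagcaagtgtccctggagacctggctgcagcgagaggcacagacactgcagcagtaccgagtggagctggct
Stat5a-202, last 60 coding bases: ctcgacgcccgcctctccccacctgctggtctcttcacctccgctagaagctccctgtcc
Stat5b-201, last 60 coding bases: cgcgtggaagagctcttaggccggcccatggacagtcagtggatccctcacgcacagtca

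Among the feedback inhibitors Cish was far above the others. Cish (ENSMUSG00000032578.7, chromosome 9, 107296026 to 107302784, plus strand) encodes the SH2 protein CIS, which occupies STAT5 docking sites on the receptor. It had 140.05 TPM in replicate 1 and 133.37 TPM in replicate 2, a mean of 137 ± 4.72 TPM (SD, n = 2). It held 76.2% ± 0.565 of the TPM of the 8 SOCS family genes, and Socs7 came next at 16.48 and 17.71 TPM. Over all its transcripts Cish exceeded Epor, by 1.51-fold and 1.38-fold. Over transcripts with a coding sequence it had 69.90 and 63.25 TPM and was below Epor, at 0.756 and 0.654 of the Epor level. That coding level was assigned to Cish-204 and the short Cish-203 alone, which are described below.

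Socs1 and Socs3, whose proteins block JAK kinase activity, were the lowest of the 10 genes. Socs1 (ENSMUSG00000038037.4, chromosome 16, 10782240 to 10785536, minus strand) had 1.00 and 1.10 TPM, from 19 expected counts in each library, and was the lowest of the 8 family genes. Socs3 (ENSMUSG00000053113.3, chromosome 11, 117966079 to 117970047, minus strand) had 2.35 and 2.09 TPM, from 90 and 77 expected counts. The log2 ratio of Cish over Socs1 was 7.03 ± 0.15, and that of Cish over Socs3 was 5.95 ± 0.07 (SD, n = 2 for each). Cish was thus the higher in both libraries, by 140-fold and 121-fold over Socs1 and by 59.6-fold and 63.8-fold over Socs3. Over transcripts with a coding sequence these log2 ratios were lower, at 5.99 over Socs1 and 4.95 over Socs3 on average. The GAS word in the Socs3 window shown above stands beside a low transcript level, and the pair of GAS words in the Cish window beside a high one. The promoters of 2 genes are a description and no test.

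Socs2 (ENSMUSG00000020027.14, chromosome 10, 95385362 to 95417180, minus strand), best known for limiting growth hormone signalling, lay between these. It had 11.89 TPM in replicate 1 and 11.11 TPM in replicate 2, a mean of 11.5 ± 0.552 TPM (SD, n = 2), which was 6.40% of the SOCS total. Cish was higher in both libraries, with a log2 ratio of Cish over Socs2 of 3.57 ± 0.02 (SD, n = 2). Restricted to transcripts with a coding sequence, Socs2 had 7.17 and 6.32 TPM.

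Sh2b3 (ENSMUSG00000042594.12, chromosome 5, 121815488 to 121837646, minus strand), the adaptor that binds and restrains JAK2, was close to Jak2 in level. It had 10.63 TPM in replicate 1 and 11.31 TPM in replicate 2, a mean of 10.97 ± 0.481 TPM (SD, n = 2). Jak2 was the higher of the pair in replicate 1 and Sh2b3 in replicate 2, so no order between them was seen. Its relative Sh2b1, an adaptor known from leptin and insulin signalling, was higher, at 26.02 and 27.98 TPM. The third relative, Sh2b2, had 0 and 3 expected counts.

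Pim1 (ENSMUSG00000024014.7, chromosome 17, 29490753 to 29496112, plus strand), a serine/threonine kinase that promotes survival and is a known STAT5 target, was the highest of the 10. It had 296.07 TPM in replicate 1 and 293.40 TPM in replicate 2, a mean of 295 ± 1.89 TPM (SD, n = 2), above 95.7% of the detected protein-coding genes. The 12365 and 11161 expected counts behind these values made it the most precisely counted of the set. Pim2 had 8.02 and 8.23 TPM, so that Pim1 was 36.9-fold and 35.7-fold higher. Pim3 had 0 expected counts in both libraries, which allows up to 3 counts in each, or 0.0784 and 0.0861 TPM. Against that limit Pim1 was at least 3775-fold higher in replicate 1 and at least 3407-fold higher in replicate 2. No 36-base word of Pim3 occurs in another gene.

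Splitting each gene into its transcripts changed the picture for Cish, Socs2 and Sh2b3 and left the other 7 genes with 93.6% or more of their TPM in protein-coding transcripts. Of the Cish TPM, 50.1% in replicate 1 and 52.6% in replicate 2 belonged to transcripts with no coding sequence, but these held 33.5% and 32.5% of its expected counts. The 2 non-coding transcripts differed between the scales in opposite directions. Cish-205, of 371 bases, had 43.54% and 44.20% of the TPM but 10.9% and 8.97% of the counts. Cish-202, of 4697 bases, had 6.55% and 8.37% of the TPM but 22.7% and 23.6% of the counts. Cish-204, a coding transcript of 2742 bases, held most counts, 61.0% and 65.8%, and 30.39% and 40.25% of the TPM. The coding Cish-201, of 2850 bases and 3 exons, had 0 expected counts in both libraries. Cish-204 lacks the middle exon of Cish-201, of 221 bases, and reaches further at the 3′ end. Cish-203, a coding transcript of 411 bases, had 19.52% and 7.18% of the TPM. The short Cish-203 was thus the least even between the libraries. Only 35 of the 336 words of 36 bases in Cish-205 occur in no other Cish transcript, so few reads can be assigned to it alone.

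Sh2b3 reads were mainly assigned to a transcript annotated for nonsense-mediated decay, the route that removes messages with an early stop. This transcript, Sh2b3-205, had 75.99% of the gene's TPM in replicate 1 and 81.42% in replicate 2. The coding transcript Sh2b3-202 had 24.01% and 16.21%. Over protein-coding transcripts alone, Sh2b3 had 2.55 and 2.10 TPM, a level near that of Socs3 and no longer near that of Jak2. The 2 transcripts are nearly the same sequence. Of the 4313 bases of Sh2b3-205, 4073 lie in exons of Sh2b3-202, and 271 of its 4278 words and 43 of the 4160 words of Sh2b3-202 occur in no other Sh2b3 transcript. The last exon of Sh2b3-205 has 2606 bases against 2446 in Sh2b3-202, with the extra bases at the 3′ end. Sh2b3-205 also has an exon of 390 bases where Sh2b3-202 has exons of 95 and 215 bases. Reads from the longer 3′ end do not cover that exon, and how reads divide between these places was not examined. That 3′ end also lies in the span of Atxn2 on the other strand.

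**Figure D2:**
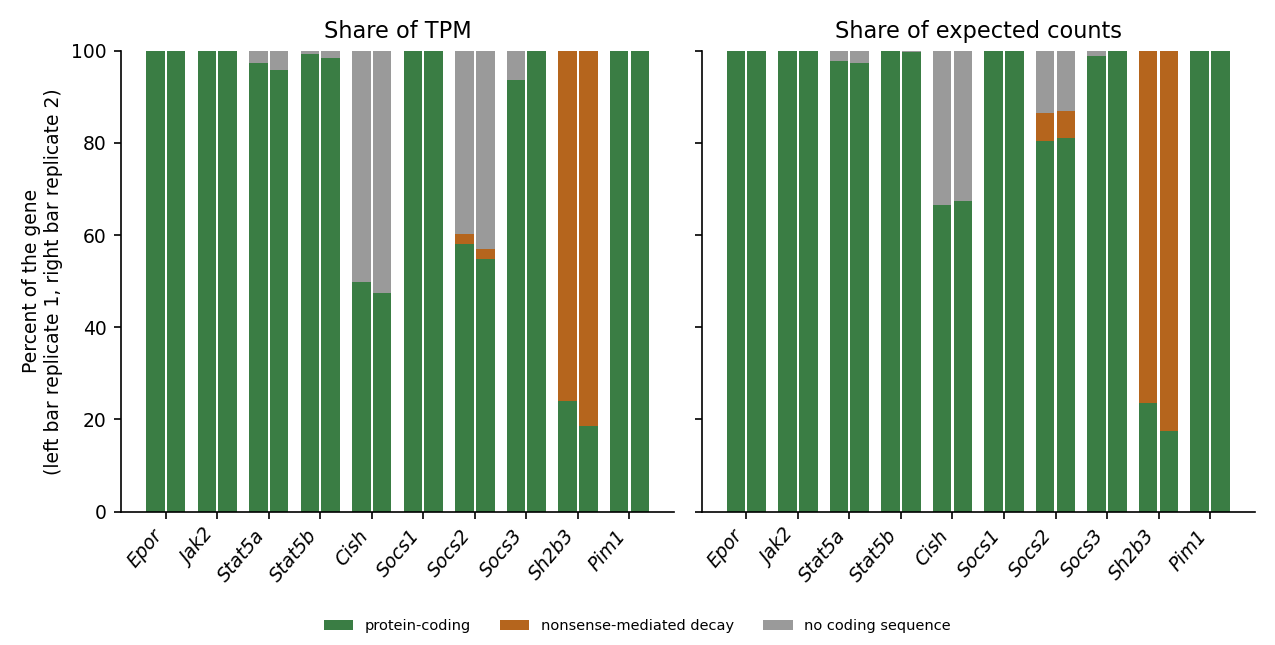
Percent of each gene's TPM (left) and of its expected counts (right) in protein-coding transcripts, transcripts annotated for nonsense-mediated decay and transcripts with no coding sequence, with replicate 1 as the left bar of each pair. Cish had 50.1% and 52.6% of its TPM in transcripts with no coding sequence, and Sh2b3 76.0% and 81.4% in the decay class.

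**Figure D3:**
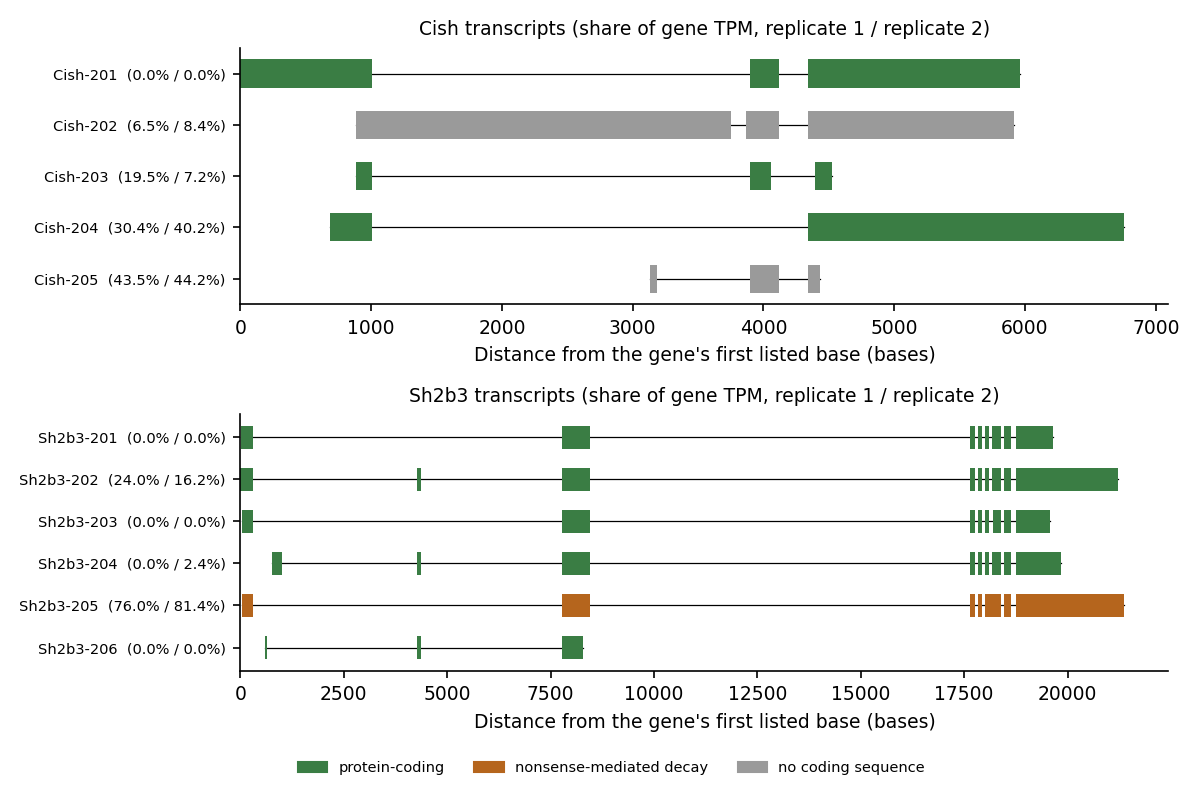
Exons of the listed Cish and Sh2b3 transcripts, drawn to scale along each gene in its own direction, with the share of the gene's TPM in replicate 1 and replicate 2. Cish-205 lies within exons of Cish-202, and Sh2b3-205 shares most of its exon bases with Sh2b3-202.

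In Socs2, which has 14 listed transcripts, the coding Socs2-201 led with 51.64% and 49.13% of the TPM. Socs2-203 followed with 21.81% and 16.15%, and Socs2-204 with 10.12% and 18.63%, both short and without a coding sequence. The non-coding Socs2-210 had 2.92% and 6.66%, and the coding Socs2-211 had 6.51% and 0%. Each of these 4 short transcripts had fewer than 20 expected counts in each library, and they did not keep one order between the libraries. The split of Stat5b was steadier, and Stat5b-201 had 97.50% and 97.91% of the Stat5b TPM. For Stat5a, Stat5a-202 had 93.39% in replicate 1 and 77.57% in replicate 2, and Stat5a-203 had 0.81% and 17.33%. Only 35 of the 3570 words of Stat5a-203 are found in no other Stat5a transcript. Socs3-201 had 93.49% and 100% of the Socs3 TPM, and Socs3-202, which is non-coding, 6.51% and 0%.

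Several of the genes overlap another gene, and nothing in the sources says whether reads were counted by strand. Cish lies over Gm17041, an antisense gene of 479 bases on the minus strand. Of the 444 words of 36 bases in Gm17041, 414 also occur in Cish when strand is ignored. Gm17041 had 968 and 787 expected counts, or 136 and 121 TPM, and it held 24.2% and 19.6% of the counts of the pair. Their summed count was 3997 in replicate 1 and 4013 in replicate 2, and without strand the reads of the pair cannot be told apart. A second gene on the minus strand, Gm17040, overlaps Cish exons by 261 bases and had 37.6 and 12.7 expected counts. Pim1 overlaps more in share, 14.5% of its exon bases against 7.46% for Cish and Gm17041. It shares 336 words with the antisense gene Gm26885, which had 33.2 and 14.6 expected counts, few beside those of Pim1. Exons of Stat5a overlap those of Stat3 by 72 bases, and exons of Sh2b3 overlap those of Atxn2, a neighbouring gene on the other strand, by 99 bases.

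Between the replicates the 10 genes varied about as much as other genes. The median of the larger over the smaller TPM was 1.09 for the 10 and 1.11 for the 8840 detected protein-coding genes. None of the 10 differed past 1.5-fold, as 4.23% of the detected genes did. The ratio of expected counts scaled to the library total (CPM), replicate 1 over replicate 2, was 1.22 for Jak2, with a 95% interval of 1.11 to 1.34. Stat5a had 0.828, with an interval of 0.753 to 0.910, and Stat5b had 0.900, with an interval of 0.865 to 0.937. The Stat5 genes were thus both lower in replicate 1, where Jak2 was higher. Cish stood at 0.854 (interval 0.812 to 0.898) in CPM but at 1.05 in TPM, where the effective length estimated for it was 1348 bases in replicate 1 and 1655 bases in replicate 2. These 4 genes were those whose interval did not hold 1, a share close to the 44.6% of detected genes for which this was so. The other 6 intervals held 1, and the widest was that of Socs1, from 0.456 to 1.82.

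**Figure D4:**
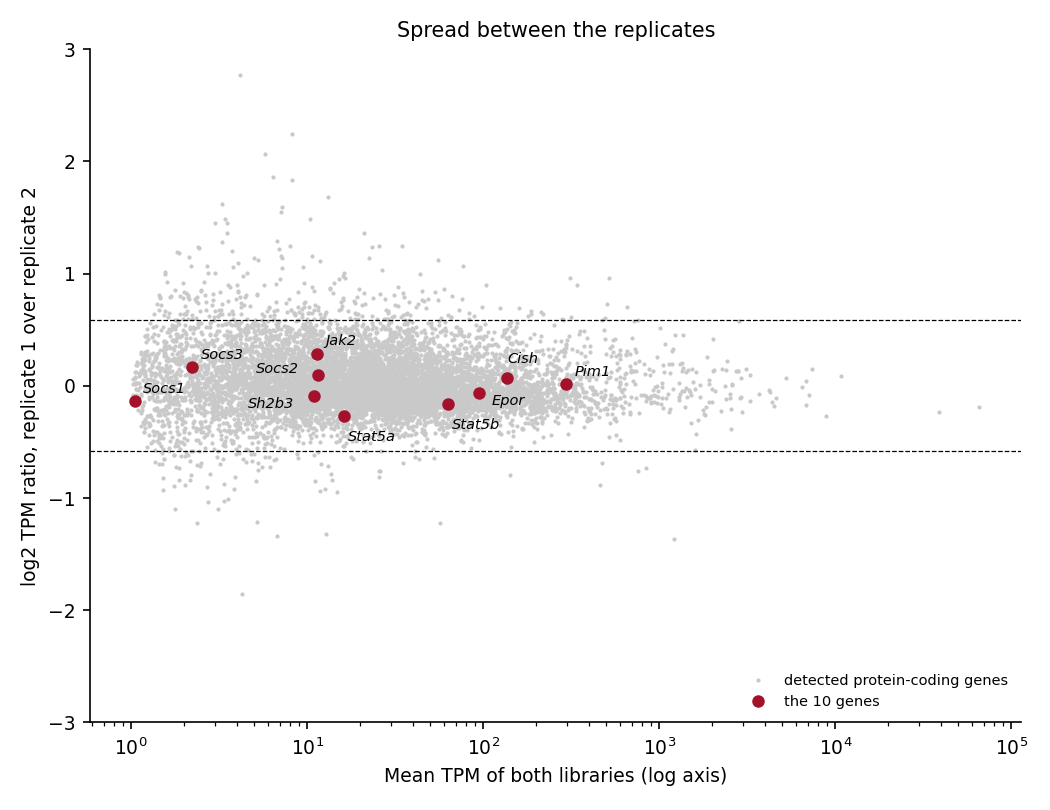
The log2 TPM ratio of replicate 1 over replicate 2 against mean TPM (log axis) for detected protein-coding genes in grey and the 10 genes in red, with dashed lines at 1.5-fold and 1 grey gene beyond the axis. All 10 genes lie between the dashed lines.

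The wider pathway was read from lists chosen for it. Of 69 other genes in lists of family members, phosphatases, adaptors, turnover factors, targets and JAK2-using receptors, 57 were detected, where 41.2% of all protein-coding genes were, and the median over all 69 was 12.1 TPM. All 4 hormones listed were at 0 expected counts in both libraries: Epo, Thpo, Kitl and Il3. Epo encodes the ligand of Epor, and Kitl that of Kit. Of 10 other receptors that signal through JAK2, 5 were detected, a share near the 41.2% of all protein-coding genes. Csf2rb led, followed by the mouse interleukin-3 beta chain Csf2rb2 at 90.55 and 102 TPM, below Epor in replicate 1 and above it in replicate 2, and the alpha chain Il3ra at 5.37 and 6.75 TPM. Those not detected included the growth hormone receptor Ghr, the prolactin receptor Prlr, the GM-CSF alpha chain Csf2ra and the G-CSF receptor Csf3r.

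The listed genes that pass on or end the signal were detected with few exceptions, where 41.2% of all protein-coding genes were detected. Of 11 phosphatases and PIAS inhibitors, 10 were detected, and the lipid phosphatase Inpp5d (SHIP1) was highest, at 163 and 183 TPM, above Epor in both libraries. It was followed by the SUMO ligase Pias4, at 67.89 and 87.94 TPM, and the tyrosine phosphatase Ptpn11 (SHP2), at 60.30 and 61.07 TPM. Over transcripts with a coding sequence Ptpn11 was above Pias4, at 37.27 and 37.72 TPM against 31.36 and 26.75 TPM. The leukocyte phosphatase Ptprc (CD45) was at 0 counts. Of 12 adaptors and kinases at the receptor, 11 were detected, led by the docking protein Irs2 at 71.78 and 76.52 TPM, and Plcg2 was at 0 counts. The adaptors Grb2 and Shc1 followed, at 58.28 and 53.32 TPM and at 54.10 and 57.05 TPM. All 6 genes of receptor transport and turnover were detected, with the scaffold Scrib highest on average at 29.27 and 35.91 TPM. The deubiquitinase Usp8, above Scrib in replicate 1, and the ubiquitin ligase Itch came next, at 32.95 and 29.83 TPM and at 14.01 and 12.81 TPM. Over transcripts with a coding sequence Usp8 was above Scrib in both libraries, at 21.71 and 21.63 TPM against 16.59 and 20.26 TPM.

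Among 14 further genes described as STAT5 targets, 12 were detected, where 41.2% of all protein-coding genes were. The median over all 14 was 34.7 TPM, against 0.08 TPM over all protein-coding genes and 20.7 TPM over the detected ones. The cyclin Ccnd3 was highest, at 975.3 and 1121 TPM, and was the only one of the list above Pim1. The transferrin receptor Tfrc had 219 and 186 TPM, and Bcl2l1, which encodes the survival protein BCL-XL, 181 and 214 TPM. Over transcripts with a coding sequence Bcl2l1 had 114 and 121 TPM. Bcl6 and Gpr132 were at 0 counts in both libraries. The remaining SOCS genes stayed far below Cish, with Socs6 at 5.04 and 5.61 TPM and Socs4 at 3.88 and 2.84 TPM. Stat3, the factor of interleukin-6 signalling, lay below Stat5b and above Stat5a in level, at 44.29 and 45.26 TPM.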

How the data were processed

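The 2 libraries were aligned to mm10 with the GENCODE M4 annotation, per the deposited file manifests. The aligner, the quantifier and the use of strand are not named there. The authors deposited, per the file headers, an expected count for each gene and transcript, its TPM, a posterior mean TPM that includes a prior, and the percent of a gene's TPM in each transcript. Length minus effective length corresponds to reads of 36 bases.

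Genes were named and placed with GENCODE M21 of the same assembly, which matched 42462 of 43346 Ensembl identifiers among 69691 rows. All 43 listed transcripts of the 10 genes were found there, 39 with the same length, and the widest gap was Socs1-201, with 1220 bases in the deposited table and 2785 in M21. Words of 36 bases were compared between M21 transcripts with Python 3.11.15.

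Ratios between genes were taken within a library on TPM, as log2 with mean and SD over both. No test was run, since with 2 libraries the smallest exact sign-flip p is 0.5. Replicate ratios were formed on TPM, on expected counts scaled to the library total (CPM) with 95% Clopper-Pearson intervals, and on TMM-scaled rounded expected counts (edgeR 4.0.16, R 4.3.3). A count of 0 allows up to 3 counts, or 0.147 CPM in replicate 1 and 0.162 CPM in replicate 2. Limits and intervals cover counting error only, and shares of expected counts are estimates without an interval. The 1.5-fold call and the intervals were tested on simulated counts that held counting error only. The other steps were not tested on simulated data.

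The 10 genes and all lists were chosen with earlier results of these data known. By rule the text names the 10 genes, the 3 highest of each pathway list, the lower gene of each ratio, list members not detected where 5 or fewer, and transcripts at 5% or more of a gene's TPM in either library. Genes overlapping the 10, the markers of other cell types and the transcript Cish-201 were named after their values were seen. Some listed genes enter the counts, sums and ranks but are not reported here by name.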

Additional observations from a re-analysis of the deposited data

How the results depend on the processing

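No paired analysis was possible because the libraries form 1 group. The 6 log2 ratios given here kept their direction under the alternatives tried for them, and 0 of the 10 genes were past 1.5-fold between replicates under each scale. Of the 8840 detected protein-coding genes, 4.23% were past it in TPM, 2.92% in CPM and in TMM and 3.30% in posterior mean TPM. With no filter on low values the share was 13.6% in TPM. Over transcripts with a coding sequence, Cish was below Epor (0.756 and 0.654 of its level, against 1.51 and 1.38) and Stat5b came above Stat6. The count of genes detected was 8 at a minimum of 5 TPM, 9 with the posterior mean (Socs1 at 0.99 TPM in replicate 1) and 10 otherwise. The share of all protein-coding genes detected was counted only at 1 TPM, so these other counts have no background beside them. Without division by length, the log2 ratio was -2.43 for Stat5a over Stat5b, -1.73 for Jak2 over Jak1, 7.36 for Cish over Socs1, 5.23 for Cish over Socs3, 11.94 for Pim1 over Pim3 and 1.45 for Epor over Kit. Over transcripts with a coding sequence it was -1.76 for Jak2 over Jak1, 5.99 for Cish over Socs1, 4.95 for Cish over Socs3 and 2.98 for Epor over Kit. With a pseudocount of 1 TPM it was 6.07 for Cish over Socs1, 5.42 for Cish over Socs3, 8.21 for Pim1 over Pim3 and 2.85 for Epor over Kit. With the posterior mean it was 5.65 for Cish over Socs3, 13.47 for Pim1 over Pim3 and 2.85 for Epor over Kit. The prior and the pseudocount enter the Pim3 value, which is at 0 counts. The cause of the other shifts was not tested. Each library alone gave -2.01 to -1.91 for Stat5a over Stat5b, -1.96 to -1.82 for Jak2 over Jak1, 6.92 to 7.13 for Cish over Socs1, 5.897 to 5.996 for Cish over Socs3, 11.73 to 11.88 for Pim1 over Pim3 and 2.93 to 2.96 for Epor over Kit. Leaving out globin and mitochondrially encoded genes raised all levels alike (Epor to 114 TPM on average). The setting without decay-annotated transcripts, chosen after seeing the data, took Sh2b3 to 2.33 TPM on average. Depth limits Socs1, at 19 counts a library.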
